A study of Mus musculus with 4 samples.

Results

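Translation initiation and elongation factors were followed in SVEC cells, an established mouse endothelial line, after exposure to lipopolysaccharide (LPS), the endotoxin in the outer membrane of Gram-negative bacteria. The genes were taken by name, as every gene whose single symbol in the probe annotation begins with Eif followed by 1 to 6 or with Eef followed by 1 or 2, without the Eif2ak kinases. This gave 39 of 11138 measured genes, 29 with an Eif symbol (initiation) and 10 with an Eef symbol (elongation), on 86 of 24344 named spots. The rule reads symbols alone. The groups were LPS for 4 h and LPS for 24 h, each compared with control cells on 2 arrays that carried both RNAs, with LPS in Cy5 on the first array and in Cy3 on the second. LPS was used at 50 ng/ml according to the labels of 3 arrays, while the second 4 h array has no dose in its labels, and all RNA was amplified. The labels call the second array a dye reversal but do not say whether it carried the same extracts. Both arrays of a time were read as the same RNA pair, so each time counts as 1 replicate, no test was made within a time, and an SD is taken as technical.

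Protein synthesis starts when the cap-binding complex eIF4F brings an mRNA to a small ribosomal subunit that carries eIF3 and the initiator tRNA on eIF2. The complex scans to a start codon, eIF2 leaves with spent GDP, and eIF2B recharges it. Elongation then runs on eEF1A, which delivers aminoacyl-tRNAs, on the eEF1B subunits that recharge eEF1A, and on eEF2, which moves the ribosome along. In many cells both stages are tuned after infection or stress, through eIF2 kinases, through 4E-binding proteins downstream of mTOR and through the eEF2 kinase.

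Promoters are shown for 8 of the members past the 4 h rule described below with an entry in the RefSeq promoter table (build GRCm38.p6). Eif2b1, Eif4a1, Eef1aknmt and Eif4e2 also have an entry and are not shown, while Eif4g2, Eif3i, Eif3e and Eif6 have none there. Each run gives 80 bases before to 20 bases after the annotated start, 5′ to 3′ on the strand of the gene. Capitals mark the letters CCGGAAG or their reverse complement CTTCCGG, the core that ETS factors bind, the E-box CACGTG and the TATA box TATAAA. Over the same span, the promoters of Eif2b1, Eif4a1 and Eef1aknmt hold none of these letters, and those of Eif4e2 hold CCGGAAG. Eef1a1 and Eef1a2 stand first because these paralogues lay on opposite sides of 0 at 4 h, at chr9:78481705-78481804 (minus strand) and chr2:181156996-181157095 (minus strand). Eef1b2 lies at chr1:63176751-63176850 (plus), Eif2b4 at chr5:31193120-31193219 (minus), Eif3c at chr7:126566347-126566446 (minus), Eif3k at chr7:28981869-28981968 (minus), Eif3f at chr7:108934335-108934434 (plus) and Eif1b at chr9:120492526-120492625 (plus).
Eef1a1: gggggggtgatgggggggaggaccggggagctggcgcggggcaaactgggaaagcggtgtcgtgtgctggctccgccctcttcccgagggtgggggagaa
Eef1a2: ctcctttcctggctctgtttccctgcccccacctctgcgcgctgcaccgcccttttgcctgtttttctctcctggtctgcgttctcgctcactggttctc
Eef1b2: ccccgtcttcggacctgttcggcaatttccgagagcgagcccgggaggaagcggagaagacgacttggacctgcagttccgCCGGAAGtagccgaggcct
Eif2b4: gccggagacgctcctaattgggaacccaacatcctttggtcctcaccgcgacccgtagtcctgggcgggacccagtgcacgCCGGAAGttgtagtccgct
Eif3c: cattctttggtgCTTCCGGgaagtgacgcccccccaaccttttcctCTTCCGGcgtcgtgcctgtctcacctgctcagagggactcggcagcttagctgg
Eif3k: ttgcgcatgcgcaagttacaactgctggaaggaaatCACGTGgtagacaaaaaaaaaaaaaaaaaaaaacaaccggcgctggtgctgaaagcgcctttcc
Eif3f: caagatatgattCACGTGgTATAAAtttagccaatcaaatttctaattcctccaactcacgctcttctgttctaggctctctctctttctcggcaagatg
Eif1b: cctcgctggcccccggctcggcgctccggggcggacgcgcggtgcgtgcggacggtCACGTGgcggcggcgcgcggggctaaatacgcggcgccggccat

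Of the 39 members, 29 had a promoter in that table. In the 300 bases from 250 before to 50 after the start, CCGGAAG on either strand was found in 12 of the 29 (41.4%), against 14.9% of the 8807 array genes with a promoter and 9.93% of all 27025 genes in the table. The E-box CACGTG, which reads the same on both strands, was found in 9 of 29 (31.0%), against 10.5% and 8.09%. The GC box GGGCGG, searched on both strands, was in 23 of 29 (79.3%), against 57.8% and 38.2%, and the TATA box in 2 of 29 (6.90%), against 12.9% and 15.7%. The words are counted separately: a GC box and an ETS core can share end letters, and 1 promoter can hold several words, as that of Eif3f does with an E-box and a TATA box. A C followed by 4 pyrimidines, lying wholly between 5 bases before and 10 after the start and searched on the strand of the gene, resembles the beginning of a terminal oligopyrimidine tract and was present in 7 of 29, or 24.1%, against 22.9% of array genes. Among the 11 members with a promoter that were higher at 4 h, 5 held CCGGAAG and 5 the E-box; among the 18 other members the counts were 7 and 4. These are matches of letters in a window and describe no binding.

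The values are log2 ratios of LPS over control, centred on the median spot of each array. A gene was counted as higher or lower where its 2 arrays averaged at least 2-fold and neither fell short of 1.5-fold in that direction. The direction is likely, not stated: it assumes that deposited values are Cy5 over Cy3, and the other convention would turn every sign. The table holds no intensities, so the levels of the factors, the levels of endothelial markers and faint spots could not be assessed. Over all genes the arrays of a pair correlated at r = 0.48 at 4 h and 0.10 at 24 h, and over the 39 members at 0.61 and -0.29; genes of 1 array share its RNA and its spots. Of the 344 spot values of the members, 23 were a ratio of exactly 1, of which 11 were on the 4 h array with LPS in Cy5. Of 13 endothelial markers 0 were higher and 1 was lower at 4 h, Cdh5 at -4.97 and -1.98, with a list median of -0.01. Of 10 mural and fibroblast markers 6 were higher and 1 lower at 4 h. The part of these cell types in the results was not tested.

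After 4 h with LPS, 14 of 39 translation factors were higher and 2 lower, where 8.74% of all genes were higher and 5.77% lower. The 14 included the cap complex relative Eif4g2, the eIF3 subunit Eif3c and the elongation factor Eef1a1, the 3 highest means of all members. The 2 lower genes were Eef1a2 and Eif6. In RNA from whole cultures, fewer cells that express a gene and less RNA per cell cannot be told apart. After 24 h no translation factor was higher or lower by the rule, where 1.68% of all genes were higher and 0.799% lower. By class, 11 of 29 initiation factors (37.9%) and 3 of 10 elongation factors were higher at 4 h, with 1 lower in each class. Without the 4 h array with LPS in Cy5, 2 elongation factors were lower at 4 h, beside 1007 of 11138 genes. Without the reversed 4 h array 2 initiation factors were lower, beside 996 of all genes. On the 24 h array with LPS in Cy5 alone, 3 initiation factors were higher and 1 lower, and 1 elongation factor was lower. All genes on that array counted 502 higher and 818 lower. On the reversed array alone, 2 elongation factors were higher, beside 771 of all genes. The class medians were 0.29 for initiation and 0.35 for elongation at 4 h, and 0.19 and 0.12 at 24 h, while all genes had a median close to 0 at 4 h and of 0.02 at 24 h. The medians on single arrays crossed over: at 4 h initiation lay at 0.07 with LPS in Cy5 and 0.42 with the dyes reversed, and elongation at 0.42 and then 0.22. The order of the classes thus differed between the arrays.

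**Figure D1:**
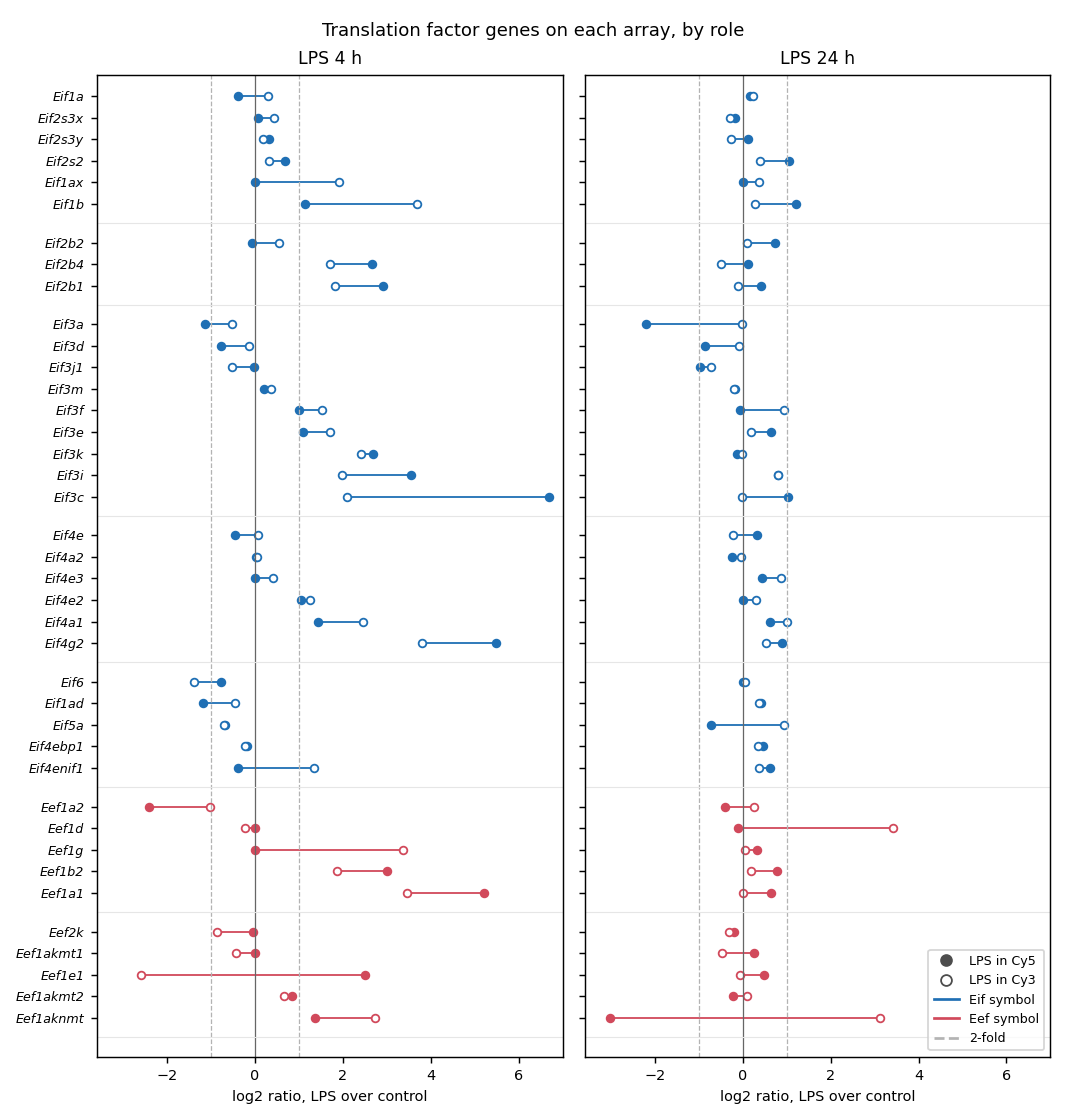
Log2 ratio of LPS over control (x axis) for each of the 39 genes (y axis, grouped by role), on the array with LPS in Cy5 (filled) and the array with LPS in Cy3 (open, turned in sign), at 4 h (left) and 24 h (right). The 14 higher genes at 4 h have both points right of 0, led by Eif4g2, Eif3c and Eef1a1, while at 24 h most pairs of points lie within the dashed 2-fold lines.

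The initiation results began with the cap complex. Eif4g2 encodes a relative of the scaffold eIF4G that lacks its eIF4E-binding part and serves cap-independent initiation. It lay at 5.47 and 3.81 on the 4 h arrays and at 0.89 and 0.52 on the 24 h arrays, so both early values were above both late ones. The 4 h mean of 4.64 ± 1.18 (SD, 2 arrays), or 25.0-fold, was the highest of the 39 genes. All 4 of its spot values at 4 h were on the same side.

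The RNA helicase gene Eif4a1, whose product unwinds the mRNA leader, lay at 1.43 and 2.46 at 4 h and at 0.62 and 0.997 at 24 h. Its mean of 1.94 ± 0.73 was 3.85-fold, and the 24 h mean of 0.81 ± 0.27 was the highest among initiation factors at that time. On the 24 h array with LPS in Cy5 its 2 spots stood apart, at -0.23 and 1.46. Its paralogue Eif4a2 did not share this: it lay at 0.03 and 0.05 at 4 h and at -0.25 and -0.04 at 24 h. Eif4e, the cap-binding protein itself, had arrays on either side of 0 at both times, with means of -0.20 and 0.05.

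Eif4e2 encodes a cap-binding relative of eIF4E that can repress translation. Its gene mean met the rule at 4 h, at 1.05 and 1.25, with a mean of 1.15 ± 0.15 or 2.22-fold. Its 2 oligonucleotides disagreed: one lay at 2.60 and 2.35, the other at -0.51 and 0.16. The call therefore came from 1 oligonucleotide. Eif4e3, another cap-binding family gene, reached 0.21 at 4 h and 0.65 at 24 h, where both arrays were above 0. The members of the cap complex list had 3 of 6 genes higher at 4 h and a median of 0.68.

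Of the 9 measured subunits of eIF3, the scaffold on the small ribosomal subunit, 5 were higher at 4 h and 0 lower, with a median of 1.25. Eif3c, a core subunit, lay at 6.68 and 2.10, which gave 4.39 ± 3.24 or 21.0-fold. The spread came from 1 array, where its spots lay at 3.86 and 9.50; on the other they lay at 1.95 and 2.26. Eif3i, a beta-propeller subunit, lay at 3.54 and 1.97 (2.76 ± 1.11), and Eif3k, a small accessory subunit, at 2.69 and 2.42 (2.56 ± 0.19). Eif3k had the tightest pair of arrays among members above 2 on the log2 scale, and at 24 h it lay at -0.13 and -0.02.

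Eif3f and Eif3e were the lowest of the 5. Eif3f lay at 0.99 and 1.51, with a mean of 1.25, and Eif3e at 1.08 and 1.70, with a mean of 1.39. The spots of Eif3e opposed each other. One read 3.33 and -0.36 at 4 h and 1.29 and -1.80 at 24 h, the other -1.16 and 3.75, then -0.03 and 2.20. Before the dye reversal is turned, the first spot was thus brighter in Cy5 and the second in Cy3 on all 4 arrays.

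The remaining eIF3 subunits were below or near 0. Eif3a, the large scaffold subunit, lay at -1.13 and -0.53 at 4 h and at -2.21 and -0.01 at 24 h. Its 24 h mean of -1.11 ± 1.56 was the lowest of all members, but the second array stood at -0.01 and the rule was not met. Eif3d, which also contacts the cap, had means of -0.45 and -0.48, and Eif3j1, a loosely bound subunit, -0.27 and -0.85. Eif3j1 was below 0 on both arrays at 24 h, at -0.98 and -0.72. Eif3m lay at 0.29 and -0.18. Genes of 1 complex therefore ranged from -0.83 to 4.39 at 4 h.

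Among the genes of the eIF2 cycle, the exchange factor eIF2B gave the higher values. Eif2b1, its alpha subunit, lay at 2.91 and 1.81 at 4 h (2.36 ± 0.78, 5.14-fold), and Eif2b4, its delta subunit, at 2.65 and 1.70 (2.17 ± 0.68, 4.51-fold). Eif2b2, the beta subunit, lay at -0.07 and 0.54. At 24 h the 3 genes had means of 0.15, -0.18 and 0.41. The subunits of eIF2 itself did not meet the rule: Eif2s2 (beta) had means of 0.50 and 0.71, and the X-linked and Y-linked gamma genes Eif2s3x and Eif2s3y had 0.25 and 0.25 at 4 h and -0.23 and -0.08 at 24 h. The 2 oligonucleotides of Eif2s3y differed at 4 h, with means of 0.62 and -0.12. The alpha subunit gene was not analysed here.

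Of the factors that open the start-codon scan, only Eif1b, a close paralogue of Eif1, was higher at 4 h, at 1.14 and 3.68, a mean of 2.41 ± 1.80. Its 2 oligonucleotides were both above 0, at 0.54 and 5.04 and at 1.73 and 2.32. A single spot of 8.70 raised the first. At 24 h it lay at 1.21 and 0.27. Eif1ax, which encodes eIF1A, was at a ratio of exactly 1 in both spots of the 4 h array with LPS in Cy5 and at 1.90 on the other, so its 4 h mean of 0.95 rested on 1 array. Eif1a, its autosomal relative, lay at -0.39 and 0.30.

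Of the 5 other Eif genes, which restrain or flank initiation, 4 were below 0 on both 4 h arrays, beside 3826 of 11138 genes. The signs over all genes were taken without setting aside ratios of exactly 1. Of the 5 genes, by the rule 1 was lower and 0 were higher, where 5.77% of all genes were lower and 8.74% higher. The median of these 5 was -0.70. Eif6 encodes the factor that keeps a large ribosomal subunit from joining early. It lay at -0.77 and -1.39 at 4 h, a mean of -1.08 ± 0.44, and near 0 at 24 h. Here too the oligonucleotides differed, at -2.11 and -2.97 for one and 0.57 and 0.19 for the other, so that the call came from the former. Eif1ad, a gene with an eIF1A-like domain, lay at -1.19 and -0.46 and missed the 2-fold mean at -0.83. Eif5a, whose product carries hypusine and acts mainly in elongation, lay at -0.68 and -0.71 at 4 h. The second value averaged spots at -1.43 and at a ratio of exactly 1. With ratios of exactly 1 left out, its 4 h mean was -1.05. At 24 h the 2 spots of Eif5a stood apart on both arrays, at 1.90 and 3.52 for one and -3.32 and -1.66 for the other. Eif4ebp1, the inhibitor that mTOR releases from eIF4E, lay at -0.18 and -0.23, then at 0.47 and 0.35. Eif4enif1, which carries eIF4E into the nucleus and P-bodies, had a mean of 0.48 at 4 h with arrays at -0.39 and 1.35.

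**Figure D2:**
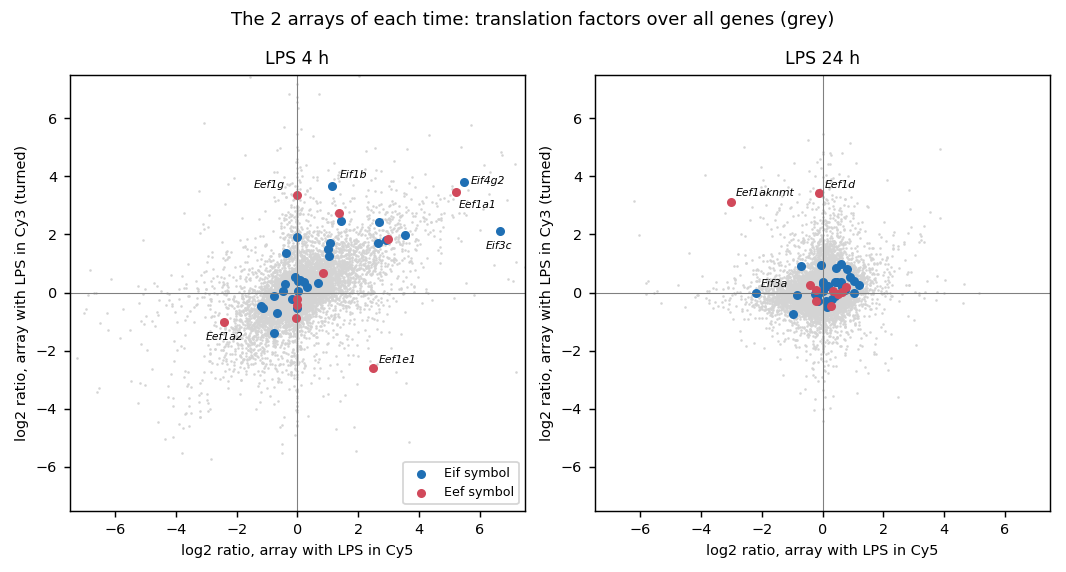
Log2 ratio on the array with LPS in Cy5 (x axis) against the turned array with LPS in Cy3 (y axis), at 4 h (left) and 24 h (right), for translation factors (blue, Eif; red, Eef) over all genes (grey; a few lie outside the axes). At 4 h Eif4g2, Eef1a1 and Eif3c lie far from 0 on both arrays and Eef1e1 on opposite sides; at 24 h Eef1d and Eef1aknmt are far from 0 with arrays that disagree.

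Among elongation factors, Eef1a1 had the largest ratio. It encodes the main carrier of aminoacyl-tRNA and lay at 5.21 and 3.45 at 4 h, a mean of 4.33 ± 1.24 or 20.1-fold. At 24 h it lay at 0.63 and 0.01. Its paralogue Eef1a2, the form of neurons and muscle, lay at -2.42 and -1.02 at 4 h (-1.72 ± 0.99, 3.30-fold lower) and at -0.41 and 0.25 at 24 h. That the lower value of Eef1a1 at 4 h was above the higher value of Eef1a2 follows from their calls in opposite directions. Whether the oligonucleotides of either gene also capture the other was not tested, as their sequences were not used here.

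The eEF1B subunits, which recharge eEF1A, were uneven. Eef1b2 lay at 2.99 and 1.86 at 4 h, a mean of 2.43 ± 0.80 or 5.37-fold, and at 0.78 and 0.19 at 24 h. Eef1g, the gamma subunit, was at a ratio of exactly 1 in both spots of the 4 h array with LPS in Cy5 and at 3.36 on the other. Its mean of 1.68 ± 2.38 thus missed the demand on each array. Eef1d, the delta subunit, lay near 0 at 4 h with a mean of -0.11. At 24 h it was at -0.12 and 3.43, so that its mean of 1.65 ± 2.51, the highest of all members at that time, came from 1 array. The Eef2 gene was not analysed here.

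The remaining Eef genes encode modifiers and a partner of the synthetases. Eef1aknmt, a methyltransferase of eEF1A, lay at 1.37 and 2.73 at 4 h and met the rule at 2.05 ± 0.96, with 3 of 4 spot values above 0. At 24 h its arrays opposed each other at -3.03 and 3.12. The first of these values averaged spots at -6.06 and at a ratio of exactly 1. Eef1akmt2, another eEF1A methyltransferase, lay at 0.85 and 0.66 at 4 h, and Eef1akmt1 had means of -0.21 and -0.11. Eef1e1, a member of the multisynthetase complex, lay at 2.50 and -2.59 at 4 h, opposite in sign on the 2 arrays, with a mean of -0.05. Eef2k, the kinase that inhibits eEF2, lay at -0.05 and -0.87 at 4 h and at -0.21 and -0.30 at 24 h. Of the 5 elongation factors proper 2 were higher and 1 lower at 4 h. Their median of 1.68 was the mean of Eef1g and rested on 1 array. The single-array median with LPS in Cy5 was near 0, the value of Eef1d, whose spots there lay at 0.55 and -0.55. With the dyes reversed it was 1.86. The median of the other 5 genes, -0.05, was that of Eef1e1, and their single-array medians were 0.85 and -0.43.

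At 24 h the means of the members lay between -1.11 and 1.65. Some of these average arrays that disagreed, as for Eef1aknmt at -3.03 and 3.12. Of the 39 members, 17 were above 0 on both arrays, 8 below 0 on both and 14 on opposite sides. Over all 11138 genes these counts were 3396 (30.5%), 2898 and 4654 (41.8%), beside 43.6%, 20.5% and 35.9% of the members. Signs were taken without setting aside ratios of exactly 1. The 14 thus include Eif1ax, at that ratio in both spots of the 24 h array with LPS in Cy5. Among genes with both arrays above 0, Eif4a1 was followed by Eif3i, at 0.80 on both arrays, then by Eif1b, Eif2s2 and Eif4g2, with means of 0.74, 0.71 and 0.71. Eif3i had the smallest gap between arrays of these 5 genes.

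The times were called different for a gene where its means lay at least 1 apart on the log2 scale with no overlap between the arrays of 4 h and those of 24 h. By this rule 9 members were lower at 24 h than at 4 h and 3 were higher, where 9.99% of all genes were lower and 8.23% higher. The 9 were Eif4g2, Eif4a1, Eif3c, Eif3i, Eif3k, Eif2b1, Eif2b4, Eef1a1 and Eef1b2, and the 3 were Eef1a2, Eif6 and Eif1ad. The differences of the 9 ranged from -4.01 for Eef1a1 to -1.14 for Eif4a1. Those of the 3 were 1.64, 1.11 and 1.23. Of the 39 members, 27 lay closer to 0 at 24 h than at 4 h, against 6611 of 11138 genes. Without the 4 h array with LPS in Cy5, 15 members were lower at 24 h, and without the 24 h array with LPS in Cy5, 6 were higher. Whether the control RNA was the same at both times is not known, so the times are given side by side.

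**Figure D3:**
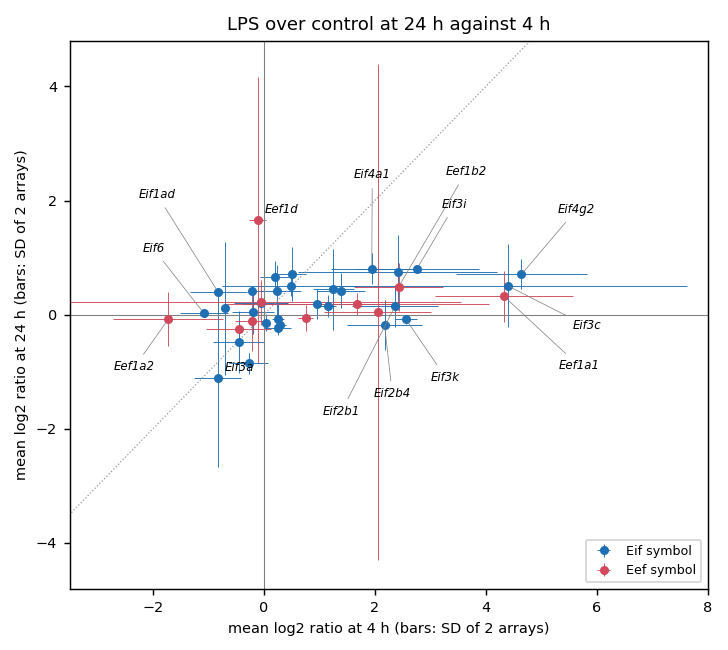
Mean log2 ratio of LPS over control at 4 h (x axis) and 24 h (y axis) for the 39 genes (blue, Eif; red, Eef), with bars for the SD of the 2 arrays and a dotted line of equal values. The genes named include all 12 called different between the times, of which 9 lie below the line at the right and 3 above it at the left.

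A response shared by both times was fitted with limma on the 2 time means over all genes, and 1 residual degree of freedom is left. At a Benjamini-Hochberg adjusted p of 0.05 it called 0 of 39 members, and 0.0% of all genes. The lowest adjusted p of a member in this limma fit was 0.761. At an unadjusted p under 0.05 there were 4 members and 513 genes. Limma on the 4 arrays taken as independent also called 0 members, with 9 members and 1245 genes at an unadjusted p under 0.05, and with a dye term 0, with 8 members and 1074 genes.

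Other genes of the translation machinery were set beside these factors. Of 66 cytosolic ribosomal protein genes, 39 were higher at 4 h and 0 lower, with a median of 2.03, and the 39 translation factors had a median of 0.29. Rpl6 had the highest mean of the ribosomal list, at 6.14 and 4.39. At 24 h 2 ribosomal protein genes were higher, and the median was 0.26. Of 11 genes for termination, recycling and poly(A) binding, 3 were higher at 4 h: Pabpc1, the poly(A)-binding protein that bridges to eIF4G, at 6.74 and 4.72, Paip2, which restrains it, at 2.31 and 2.52, and Denr, a recycling factor, at 1.18 and 3.26. None of these 3 met the rule at 24 h.

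The regulators of the factors were higher in shares near that of all genes, 8.33% and 7.14% in the 2 lists at 4 h beside 8.74%. In the list of eIF2 kinases and stress response genes, 1 of 12 was higher at 4 h, the synthetase gene Nars at 1.33 and 1.89. At 24 h 1 was higher, or 8.33% beside 1.68% of all genes. It was the interferon-induced eIF2 kinase gene Eif2ak2, at 1.60 and 1.16, after 0.35 and -0.26 at 4 h. Eif2ak1, Eif2ak3 and Eif2ak4 met the rule at neither time. In the mTOR, MNK and S6 kinase list, 1 of 14 was higher at 4 h, the mTOR activator gene Rheb at 2.49 and 1.40. In that list 2 were lower at 4 h, or 14.3% beside 5.77% of all genes. These were Rps6kb2, an S6 kinase gene, at -1.08 and -1.24 and Pdcd4, an inhibitor of eIF4A, at -0.88 and -1.32. No gene of this list met the rule at 24 h. Of 13 cytosolic synthetase genes only Nars was higher at 4 h, and of 3 mitochondrial translation factor genes Mrrf was lower, at -3.83 and -1.85.

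**Figure D4:**
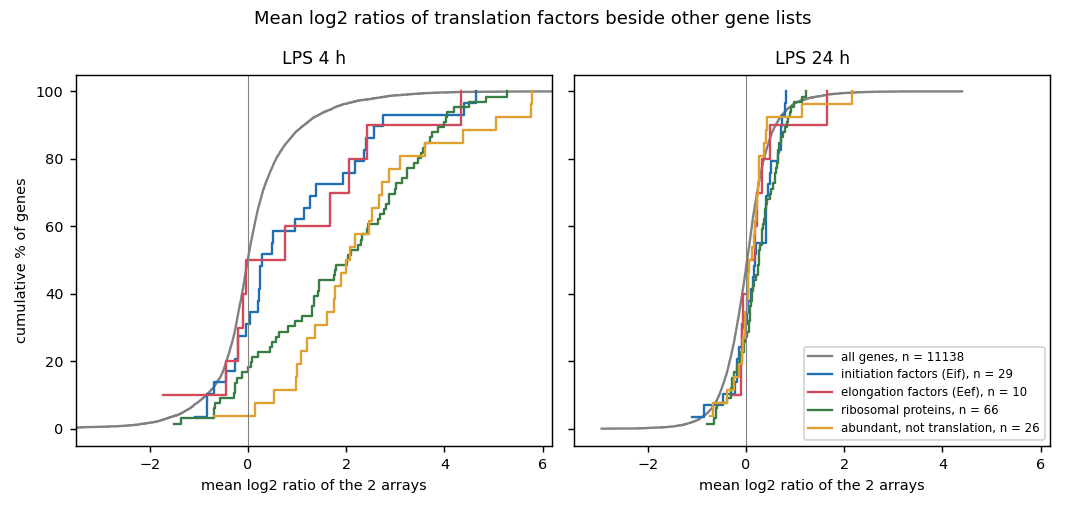
Cumulative percentage of genes (y axis) by mean log2 ratio of the 2 arrays (x axis) at 4 h (left) and 24 h (right), for all genes, both factor classes, ribosomal proteins and abundant transcripts outside translation. At 4 h the upper part of both factor classes lies right of all genes, and ribosomal proteins and abundant transcripts lie further right, with medians of 2.03 and 2.04.

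Abundant transcripts outside translation moved in the same direction at 4 h. Of 26 such genes, among them Gapdh, Ppia and H3f3b, 17 were higher and 0 lower, with a median of 2.04, and at 24 h 2 were higher, with a median of 0.08. Their part in the values of the translation factors was not tested. When each array was centred on this list in place of its median spot, 2.48 and 1.72 were subtracted on the 4 h arrays. Initiation factors then counted 1 higher and 16 lower, elongation factors 1 and 5, and all genes 83 and 9552. Eif4a1, Eif4e2, Eif3e, Eif3f and Eef1aknmt turned in sign, to -0.16, -0.95, -0.71, -0.85 and -0.05. The 4 h ratios are therefore relative to the median spot, while the order of the genes on an array does not depend on this choice.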

How the data were processed

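The deposited table gives log2 ratios of the 2 dyes for 32448 spots on 4 arrays. Per the labels, amplified RNA of control and LPS-treated cells was labelled with Cy3 and Cy5, and the second array of each time reversed them. The log2 scale was read from the values, since 2 raised to their size falls on steps of 0.01. The sources used here do not describe the scan, the background correction or the normalization. The number of arrays limits the precision, as do gaps between spots of an oligonucleotide, up to 7.31 on the log2 scale for Eif1b.

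Each array was centred on its median (0 as deposited), reversed arrays were turned in sign, and spots of a gene were averaged. The platform annotation named 24344 spots with 1 symbol; 98 with several and 8006 without a name were left out. All 39 members matched the RefSeq gene table (GRCm38.p6) by Entrez identifier. Fold rules were applied in Python 3.11.15 and the shared response was fitted with limma 3.58.1 (R 4.3.3) across all 11138 genes. Both were run on simulated data with known changes. For limma the simulated arrays were independent with equal changes, whereas the arrays of a time here were read as the same RNA pair. Arrays of a time count as 1 sample.

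Members and lists were chosen with earlier results of these data known. Named genes are all members past a rule or central to a complex, the remaining members by role, and up to 4 genes per context list, of which the largest are given. Alternatives covered centring, scaling, fold thresholds, spots at a ratio of exactly 1, single arrays and limma settings. Marker lists of epithelial and leukocyte cells had 4 h medians of -0.18 and -0.09.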

Additional observations from a re-analysis of the deposited data

Results flagged for a closer look

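For 7 genes both arrays of 4 h lay on one side of 0 and both arrays of 24 h on the other, as differences of the log2 ratio (24 h minus 4 h) that were not tested. They are 17.9% of the members, and 13.8% of all genes did the same. The differences were -2.64 for Eif3k, 1.23 for Eif1ad, 1.11 for Eif6, 0.62 for Eif4ebp1, -0.48 for Eif2s3x, -0.47 for Eif3m and -0.18 for Eif4a2. Of these, Eif3k, Eif1ad and Eif6 were also called different between the times. Some of the values lay close to 0, as those of Eif6 at 24 h and of Eif4a2 at 4 h. No group had the 4 samples that a check for single outlying arrays needs.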

How the results depend on the processing

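Centring on 26 abundant transcripts changed the most. At 4 h it gave 1 higher and 16 lower initiation factors and 1 and 5 elongation factors, medians of -1.81 and -1.75, and reversed Eef1aknmt (-0.052), Eif3e (-0.71), Eif3f (-0.85), Eif4a1 (-0.16) and Eif4e2 (-0.95). It gave 24 members higher and 2 lower at 24 h than at 4 h, and 24 h medians of 0.10 for initiation and 0.034 for elongation. This follows from its construction, which lowers each 4 h value; why these transcripts lay high at 4 h was not tested. For the other changes the cause was not tested. Scaling to one spread gave 0 lower initiation factors at 4 h and 24 h medians of 0.22 and 0.19. Quantile normalization gave 0 lower initiation factors at 4 h, 2 higher ones at 24 h and 24 h medians of 0.24 and 0.18. Of all genes, 409 were then higher at 24 h. With ratios of exactly 1 left out, 2 initiation factors were lower at 4 h, beside 668 of all genes. The elongation medians were then 0.98 at 4 h and 0.063 at 24 h. Centring on named genes gave an elongation median of 0.10 at 24 h. Lower initiation factors at 4 h numbered 4 at 1.5-fold and 0 at 3-fold, beside 1468 and 306 of all 11138 genes. At 24 h the 1.5-fold rule gave 6 higher and 2 lower of 29 initiation factors, beside 978 and 742 of all genes. The mean alone gave 1 lower initiation factor and 1 higher elongation factor, beside 280 lower and 388 higher of all genes. Core elongation factors alone had medians of 1.68 and 0.32, and 0.78 and 0.26 with Eif5a added. Leaving out either array, lower initiation and lower elongation factors at 4 h each numbered 1 to 2. At 24 h higher initiation factors numbered 0 to 3, lower ones 0 to 1, higher elongation factors 0 to 2 and lower ones 0 to 1, with an elongation median of 0.074 to 0.076. All genes on single arrays counted 996 to 1007 lower at 4 h, and 502 to 771 higher and 310 to 818 lower at 24 h. Members lower at 24 h than at 4 h numbered 9 to 15, and higher ones 2 to 6. Without the 4 h array with LPS in Cy5, elongation factors lower at 4 h rose to 2; without the reversed one, initiation factors lower at 4 h did. Limma called 0 members under the 4 alternatives tried (arrays as independent, dye term, robust, abundant centring), with 0 to 9 members and 271 to 1245 genes at an unadjusted p under 0.05. No paired analysis was possible because the labels give the times no shared replicate numbers.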
